A study of Phaseolus vulgaris with 6 samples.

Results

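Genes annotated with the enzymes and carrier proteins of fatty acid and acyl lipid metabolism were described in developing pods of Voyager and Albion, a pair of navy bean cultivars of common bean (Phaseolus vulgaris). Members were taken by words of the homology annotation, which was made against A. thaliana. An annotation had to contain acyl carrier, ketoacyl, fatty acid, desaturase, acyl-CoA or acyltransferase, and those with N-acyltransferase, NAT, cytochrome P450, lipid-transfer or caffe were left out. Of the 19598 genes in the deposited table, 146 had an included word, 33 of these were left out, and 113 genes remained as members. All 113 members were above 0 FPKM in both genotypes, and no filter on low values was applied.

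Voyager is the genotype with the higher seed zinc and Albion the one with the lower. The labels give a normal zinc concentration for Voyager and a low one for Albion, and both were grown at sufficient zinc supply, so these labels were taken to describe the genotype rather than the feeding. Pods were labelled as 20 days after anthesis, whereas the study's methods give a younger age. Each genotype had 3 libraries, 1 per pot of plants, each from a pair of pooled pods ground whole, and the deposited table holds 1 FPKM value (fragments scaled by transcript length and by the number of mapped reads) per gene and genotype, combined over the 3 libraries. There are therefore no replicate values, no spread and no test of any difference below, and the number of reads behind each gene's value is not given in the table.

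The pods held pod wall and developing seeds, and the study describes seeds as a larger part of the pod weight in Albion than in Voyager. The level of a gene per cell and the share of each tissue in the pod cannot be told apart in these values. Both tissues were present by their markers. The seed list held 155 genes with annotations of oleosins, caleosins, cupins, the seed storage 2S albumin superfamily or late embryogenesis abundant proteins. It summed to 28567 FPKM in Voyager and 26419 FPKM in Albion. Cupin and albumin annotations name superfamilies, so this list can hold genes that do not mark seed. The 84 photosynthesis genes, which mark green pod wall, summed to 19470 FPKM in Voyager and 20370 FPKM in Albion. The 65 genes of secondary cell wall and vascular tissue summed to 3034 FPKM in Voyager and 2806 FPKM in Albion, and the 7 cuticle genes that are not members to 230 FPKM in Voyager and 204 FPKM in Albion. As shares of the FPKM of all listed genes these lists were lower in Voyager, with 3.01% in Voyager and 3.18% in Albion for seed, 2.05% in Voyager and 2.45% in Albion for green pod wall, 0.319% in Voyager and 0.338% in Albion for secondary wall, and 0.0242% in Voyager and 0.0246% in Albion for cuticle. Such shares depend on the total, which a few very abundant genes can move. The highest value of any listed gene was 59910.7 FPKM in Voyager and 13480.5 FPKM in Albion. Among annotated genes it was 14678.6 FPKM in Voyager and 5794.73 FPKM in Albion. The 2 highest seed genes, both annotated as cupins with the symbol PAP85, held 14111 FPKM in Voyager and 11079 FPKM in Albion, and the other 153 seed genes summed to 14456 FPKM in Voyager and 15341 FPKM in Albion. In these lists, 1 seed gene and 1 wall gene were listed at 0 in Voyager and 2 seed genes at 0 in Albion. The part of tissue composition in any difference below was not tested.

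In plants, fatty acids are built in the plastid on acyl carrier protein (ACP), a small protein that holds the growing chain on a prosthetic group. Ketoacyl-ACP synthases lengthen the chain, a soluble desaturase makes oleate, and membrane-bound desaturases add further double bonds in the plastid and in the endoplasmic reticulum. Exported acyl chains are activated to acyl-CoA and then elongated for waxes, transferred to glycerol to form membrane lipids and seed oil, or broken down by beta-oxidation in peroxisomes. The annotation rule also took genes outside synthesis, namely 14 with annotations of beta-oxidation and 2 carotenoid desaturases, so the members are acyl metabolism genes in a broad sense.

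Members were well represented in the pods. Averaged over Voyager and Albion, 72 members had 10 FPKM or more (63.7%), against 54.1% of all listed genes, and 9 had 100 FPKM or more (7.96%), against 7.43% of all listed genes. Summed over the members, FPKM was 3904 in Voyager and 3787 in Albion. That was 0.411% of the FPKM of all listed genes in Voyager and 0.456% in Albion. The median member had 16.7 FPKM in Voyager and 15.5 FPKM in Albion.

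The genotypes were compared as log2((Voyager FPKM + 1)/(Albion FPKM + 1)), which understates the change of genes with low FPKM, and a gene was counted as differing when it reached 2-fold on this scale. This was so for 5 of the 113 members (4.42%), against 4.31% of all listed genes. Higher in Voyager were 3 members, 2.65% of them, against 2.55% of all listed genes, and lower in Voyager were 2 members, 1.77%, against 1.76% of all listed genes. These shares lie at the background, so large differences were about as frequent among the members as among all listed genes. At 1.5-fold the counts were 10 higher (8.85%, against 6.95% of all listed genes) and 5 lower (4.42%, against 4.24%). With both genotypes scaled to the same summed FPKM, 1 member was at least 2-fold higher and 4 were at least 2-fold lower. With differences centred on the median of genes averaging 1 FPKM or more (median centring), 2 were higher and 3 were lower. Both scalings lower every difference, and the shares of all listed genes past 2-fold on these scales were not computed. These counts are therefore not a result about the members.

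The median difference of the members was 0.07 (95% binomial interval over members, -0.01 to 0.13), the same to 2 decimals as the 0.07 of all listed genes. The middle 50% of the members lay between -0.06 and 0.24, and that of all listed genes between -0.09 and 0.24. Voyager had the higher value for 65 members (57.5%) and for 61.9% of all listed genes. FPKM summed over all genes was 950155 in Voyager and 830694 in Albion. Annotated genes held 76.0% of it in Voyager and 80.4% in Albion, so genes without annotation weighed more in the Voyager sum. Shares of this sum and differences with equal sums therefore also carry the levels of those genes. Scaling to equal sums moved the median of all listed genes to -0.11 and that of the members to -0.12, and the members higher in Voyager then numbered 38, so many small differences change direction with the scale. The groups below are to be read beside these medians of all listed genes, 0.07 as deposited and -0.11 with equal sums, and beside the share of all listed genes that was lower in Voyager, 37.9% as deposited, 66.6% with equal sums and 49.7% with median centring.

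**Figure D1:**
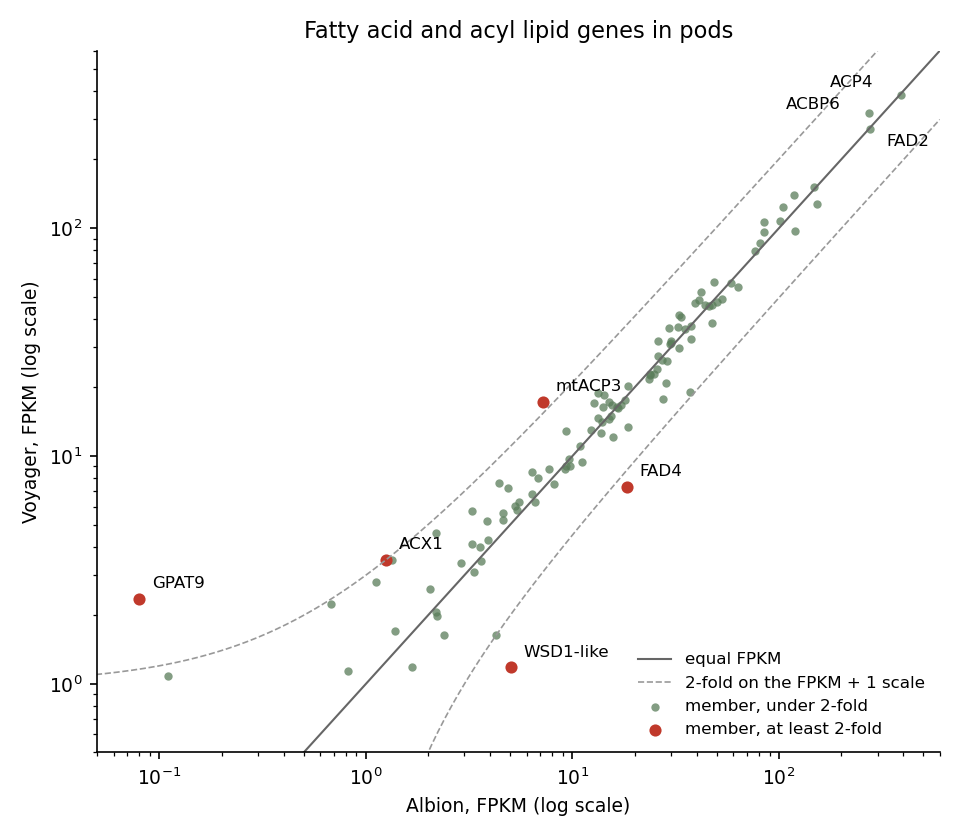
FPKM of the 113 members in Voyager (vertical) and Albion (horizontal), both on log scales, with 1 point per gene. The 5 members past the dashed lines of 2-fold on the FPKM + 1 scale (red) all have less than 20 FPKM in both genotypes, and the most abundant members, ACP4, ACBP6 and FAD2, lie close to the line of equal FPKM.

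All 5 members that reached 2-fold had a mean under 20 FPKM. Among the 48 members with a mean of at least 20 FPKM none did, and among all 6734 listed genes at this level 172 did (2.55%). The 3 higher in Voyager were a GPAT9 gene, the mitochondrial carrier protein gene mtACP3 and an ACX1 gene, and the 2 lower in Voyager were a wax ester synthase-like gene and FAD4. Each is described with its group.

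**Figure D2:**
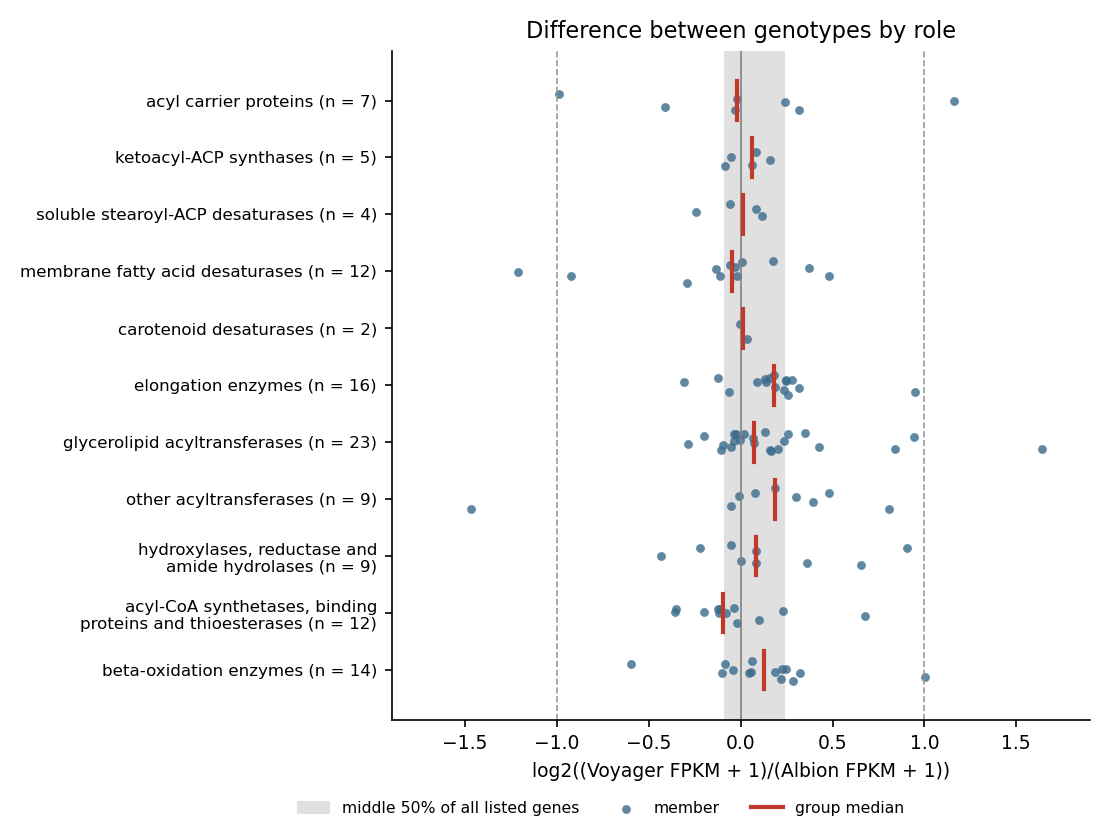
Difference of each member as log2((Voyager FPKM + 1)/(Albion FPKM + 1)) by role, with 1 point per gene, group medians in red and the middle 50% of all listed genes (-0.09 to 0.24) shaded. Dashed lines mark 2-fold, and the group medians lie between -0.10 and 0.19.

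Acyl carrier proteins, the scaffolds on which chains are built, comprised 7 members. Those annotated as ACP3 and ACP4, which are plastid proteins in A. thaliana, and those annotated as mitochondrial had values on opposite sides. All 4 genes annotated as ACP3 or ACP4 were lower in Voyager, of which 2 lay within 0.03 of equality, and all 3 mitochondrial genes were higher in Voyager. The mitochondrial genes also stayed higher with equal sums and with median centring, but their differences are larger than these scalings can shift. Both scalings lower every difference, so they are no check on the sign in either set of genes. The median difference was -0.22 for the ACP3 and ACP4 genes and 0.32 for the mitochondrial genes.

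The most abundant of all members was the ACP4 gene Phvul.006G096600 (chromosome 6, 21436047 to 21438536), with 382.88 FPKM in Voyager and 388.29 FPKM in Albion. It ranked 312 of 19598 genes by mean FPKM, and its log2 difference was -0.02. Its paralogue Phvul.002G282800 (chromosome 2, 44647672 to 44648803) had 20.97 FPKM in Voyager and 28.27 FPKM in Albion, a log2 difference of -0.41. A further ACP4 gene, Phvul.003G100400 (chromosome 3, 24517241 to 24518344), had 1.64 FPKM in Voyager and 4.24 FPKM in Albion. Its log2 difference of -0.99 lay just inside the 2-fold line. It passed the line under both other scalings, which lower every difference, at -1.11 with equal sums and -1.05 with median centring. Together the 3 ACP4 genes gave 405 FPKM in Voyager and 421 FPKM in Albion, because the leading gene supplied 94.4% of the sum in Voyager and 92.3% in Albion. ACP3 (Phvul.006G160800) had 17.58 FPKM in Voyager and 17.96 FPKM in Albion.

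Mitochondrial acyl carrier proteins serve a separate synthesis pathway that provides the precursor of lipoic acid. mtACP3 (Phvul.006G139500, chromosome 6, 25460299 to 25462417) had 17.29 FPKM in Voyager and 7.17 FPKM in Albion, a log2 difference of 1.16, which was 0.98 with equal sums. mtACP2 (Phvul.008G052400) had 139.70 FPKM in Voyager and 117.83 FPKM in Albion, a log2 difference of 0.24. mtACP1 (Phvul.008G051000) had 105.82 FPKM in Voyager and 84.61 FPKM in Albion, a log2 difference of 0.32. The gene with the large relative difference was thus the least abundant of the 3, and the mitochondrial genes summed to 263 FPKM in Voyager and 210 FPKM in Albion.

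Ketoacyl-ACP synthases, the condensing enzymes of chain growth, lay close to equal levels in the genotypes, with none of 5 at 2-fold. KAS III, which makes the first condensation, had 24.0 FPKM in Voyager and 25.52 FPKM in Albion (Phvul.008G086600). KAS1, which carries out most later rounds, was represented by Phvul.002G194300 with 79.63 FPKM in Voyager and 76.38 FPKM in Albion, and by the weakly expressed Phvul.002G300400 with 5.78 FPKM in Voyager and 5.40 FPKM in Albion. KAS2 (annotated as fatty acid biosynthesis 1, Phvul.003G128700), which extends palmitate to stearate, had 45.85 FPKM in Voyager and 47.60 FPKM in Albion. A gene annotated as beta-ketoacyl synthase (Phvul.007G154300) had 8.78 FPKM in Voyager and 7.74 FPKM in Albion. The 5 differences ranged from -0.09 to 0.16, with a median of 0.06.

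Soluble stearoyl-ACP desaturases introduce the first double bond and set the flow to oleate. Phvul.001G064100 (chromosome 1, 7999636 to 8001387) had 128.13 FPKM in Voyager and 152.04 FPKM in Albion, a log2 difference of -0.25. Phvul.003G297200 (chromosome 3, 52243608 to 52247362), which carries the symbols FAB2 and SSI2, had 107.35 FPKM in Voyager and 101.37 FPKM in Albion, a log2 difference of 0.08. These genes supplied most of the family's FPKM in both genotypes, since Phvul.006G006500 had 8.75 FPKM in Voyager and 9.15 FPKM in Albion and Phvul.001G063500 had 4.29 FPKM in Voyager and 3.89 FPKM in Albion. The median of the 4 was 0.01, and -0.17 with equal sums, against -0.11 for all listed genes on that scale.

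**Figure D3:**
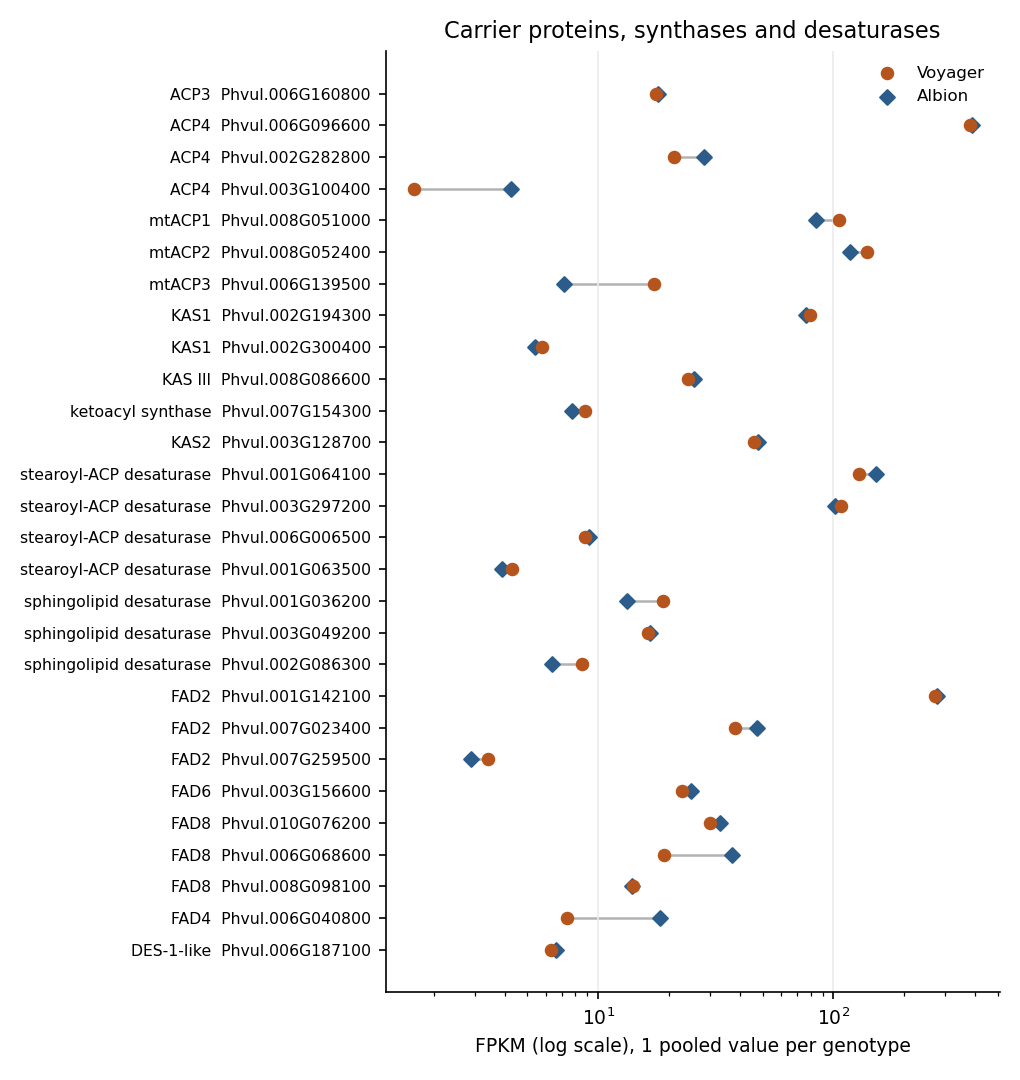
FPKM (log scale) of the acyl carrier proteins, ketoacyl-ACP synthases and fatty acid desaturases in Voyager (circles) and Albion (diamonds), with 1 pooled value per gene and genotype. The pairs lie close together except for ACP4 Phvul.003G100400, mtACP3, FAD8 Phvul.006G068600 and FAD4.

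Membrane fatty acid desaturases, with 12 members, had a lower median difference than the carrier proteins, the ketoacyl-ACP synthases or the soluble desaturases. Voyager was lower for 8 of the 12 (66.7%, against 37.9% of all listed genes), and for 9 of the 12 with equal sums (75%, against 66.6%) or with median centring (75%, against 49.7%). The median was -0.05 (interval -0.29 to 0.17), and only FAD4 reached 2-fold. The largest differences were those of FAD4 and of a FAD8 gene, which are named after plastid enzymes of A. thaliana. FAD4, FAD6 and FAD8 together had 5 genes, 4 of them lower in Voyager, and summed to 93.2 FPKM in Voyager and 127 FPKM in Albion. With equal sums or with median centring 5 of 5 were lower, but both scalings lower every difference. FAD6 and the other FAD8 genes differed by only -0.11, -0.14 and 0.01, less than the FAD2 gene Phvul.007G023400 at -0.29.

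FAD4 (annotated as fatty acid desaturase A, Phvul.006G040800, chromosome 6, 15135598 to 15136786) acts in A. thaliana on the palmitate of phosphatidylglycerol in chloroplast membranes. It had 7.34 FPKM in Voyager and 18.35 FPKM in Albion, a log2 difference of -1.21, which was -1.38 with equal sums. The only other member to reach -0.9 in this group was the FAD8 gene Phvul.006G068600 (chromosome 6, 18753232 to 18755763). FAD8 is a plastid desaturase that forms trienoic fatty acids. This gene had 19.08 FPKM in Voyager and 37.11 FPKM in Albion, a log2 difference of -0.92. It reached 2-fold with equal sums, at -1.11, a scaling that lowers every difference.

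The other FAD8 genes did not share this difference in size. Phvul.010G076200 had 29.90 FPKM in Voyager and 32.97 FPKM in Albion, and Phvul.008G098100 had 14.06 FPKM in Voyager and 13.97 FPKM in Albion. The leading FAD8 gene was therefore Phvul.010G076200 in Voyager, with 47.4% of the family's FPKM, and Phvul.006G068600 in Albion, with 44.2%. FAD6, which desaturates oleate in the plastid, had 22.80 FPKM in Voyager and 24.71 FPKM in Albion (Phvul.003G156600).

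FAD2, which converts oleate to linoleate in the endoplasmic reticulum, was the most abundant desaturase. Phvul.001G142100 (chromosome 1, 39136761 to 39142808) had 271.66 FPKM in Voyager and 275.94 FPKM in Albion, a log2 difference of -0.02, and it supplied 86.7% of FAD2 FPKM in Voyager and 84.6% in Albion. Phvul.007G023400 had 38.32 FPKM in Voyager and 47.18 FPKM in Albion, and Phvul.007G259500 had 3.39 FPKM in Voyager and 2.89 FPKM in Albion. The FAD2 total was 313 FPKM in Voyager and 326 FPKM in Albion.

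Sphingolipid desaturases act on the long-chain bases of membrane sphingolipids, and 2 of the 3 genes so annotated were higher in Voyager. Phvul.001G036200 had 18.93 FPKM in Voyager and 13.28 FPKM in Albion, a log2 difference of 0.48, and Phvul.002G086300 had 8.51 FPKM in Voyager and 6.34 FPKM in Albion, a log2 difference of 0.37. Phvul.003G049200 had 16.21 FPKM in Voyager and 16.61 FPKM in Albion. The leading gene of this family was thus Phvul.001G036200 in Voyager and Phvul.003G049200 in Albion. DES-1-like (Phvul.006G187100) had 6.30 FPKM in Voyager and 6.61 FPKM in Albion.

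The carotenoid enzymes phytoene desaturase and zeta-carotene desaturase entered by their name only. Phytoene desaturase (Phvul.001G264200) had 36.15 FPKM in Voyager and 35.25 FPKM in Albion. Zeta-carotene desaturase (Phvul.007G186000) had 37.21 FPKM in Voyager and 37.37 FPKM in Albion.

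Families of paralogues were compared by the gene that supplied most of their FPKM. Among the members, 30 annotations were shared by at least 2 genes, 81 genes in all. The leading gene was the same in Voyager and Albion in 28 of these families, and it differed in 2, FAD8 and the sphingolipid desaturases. In 11 families a single gene supplied at least 75% of the FPKM in both genotypes, among them KAS1, FAD2, ACP4 and KCS6. Reads shared by near-identical paralogues can be divided between them when abundance is estimated, so the shares of such genes are less certain than the family sum.

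**Figure D4:**
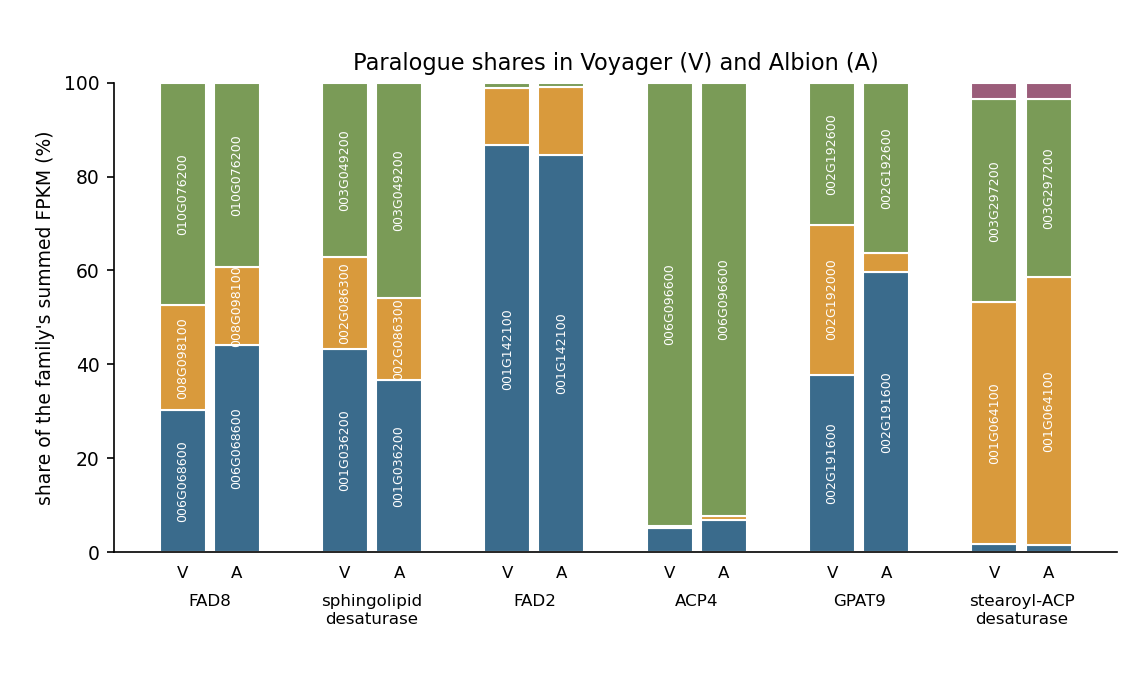
Share of each gene in the summed FPKM of its family, in percent, for 6 families in Voyager (V) and Albion (A). A single gene leads in FAD2 and ACP4, and the leading gene differs between the genotypes in FAD8 and the sphingolipid desaturases.

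Elongation enzymes of the endoplasmic reticulum, which make very long chains for waxes, cutin-associated lipids and sphingolipids, had 16 members. Their median difference was 0.18, against 0.07 for all listed genes, and 13 of 16 were higher in Voyager. With equal sums only 8 of 16 were higher (median 0.02, against -0.11 for all listed genes). With median centring 13 of 16 were higher (median 0.12, against 0.00 for all listed genes). None reached 2-fold, and with 16 genes the interval of the median was 0.09 to 0.26. For the 14 genes annotated as 3-ketoacyl-CoA synthase (KCS) alone it was -0.06 to 0.28.

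The most abundant elongation gene was the KCS19 gene Phvul.007G009200 (chromosome 7, 644600 to 646052), a 3-ketoacyl-CoA synthase, with 123.28 FPKM in Voyager and 103.95 FPKM in Albion. Its neighbour Phvul.007G009100, also annotated as KCS19, had 40.88 FPKM in Voyager and 33.54 FPKM in Albion. KCS1 (Phvul.009G257100), which acts in wax synthesis, had 52.68 FPKM in Voyager and 42.05 FPKM in Albion. KCS10 (Phvul.009G084500), known as FIDDLEHEAD for its role in the epidermis, had 46.99 FPKM in Voyager and 39.08 FPKM in Albion. Log2 differences of these 4 genes lay between 0.24 and 0.32. KCR1 (Phvul.001G257300), the reductase of the second elongation step, had 96.58 FPKM in Voyager and 84.83 FPKM in Albion.

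The abundant KCS6 gene went the other way. KCS6, also called CER6, supplies the chains of cuticular wax in A. thaliana, and Phvul.007G027100 (chromosome 7, 2029208 to 2031979) had 96.92 FPKM in Voyager and 120.10 FPKM in Albion, a log2 difference of -0.31. Only the KCS4 genes were also lower in Voyager, with log2 differences of -0.12 (Phvul.009G023600) and -0.06 (Phvul.001G014100). The largest difference in the group was that of the weakly expressed KCS11 gene Phvul.007G279500, with 3.51 FPKM in Voyager and 1.34 FPKM in Albion, a log2 difference of 0.95, or 1.33 with a pseudocount of 0.1.

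**Figure D5:**
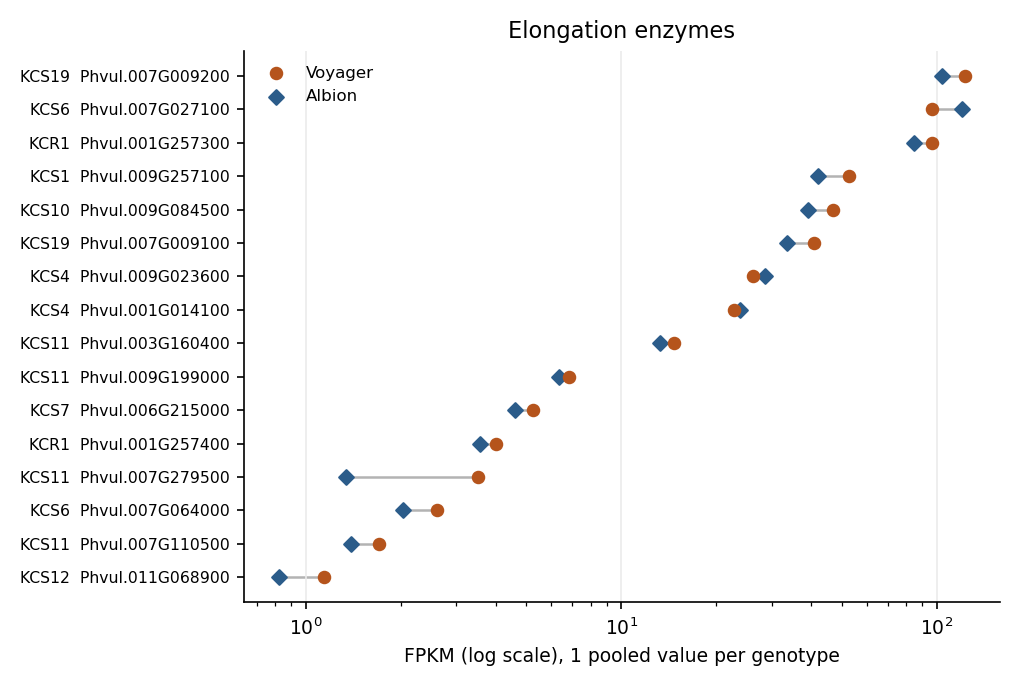
FPKM (log scale) of the 16 elongation enzymes in Voyager (circles) and Albion (diamonds), ordered by the Voyager value, with 1 pooled value per gene and genotype. Voyager is higher for 13 genes, and the abundant KCS6 gene and both KCS4 genes are lower.

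Glycerolipid acyltransferases place acyl chains on glycerol and were the largest group, with 23 members. Their median was 0.07, equal to that of all listed genes to 2 decimals, and 1 of 23 reached 2-fold. The abundant genes were level. Phvul.009G056600, annotated as a phospholipid/glycerol acyltransferase and the most abundant of the group, had 46.17 FPKM in Voyager and 43.85 FPKM in Albion. The LPAT2 genes, whose product in A. thaliana adds the second chain, had 32.59 FPKM in Voyager and 37.55 FPKM in Albion (Phvul.001G136600), and 26.47 FPKM in Voyager and 27.15 FPKM in Albion (Phvul.007G255300). The 4 genes annotated as diacylglycerol acyltransferase or PDAT, which complete triacylglycerol, summed to 47.1 FPKM in Voyager and 44.5 FPKM in Albion.

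The GPAT9 genes stood apart within the group. GPAT9 adds the first acyl chain to glycerol-3-phosphate in the endoplasmic reticulum. Its 3 genes lie on chromosome 2 within 34810183 to 34879996, with no other listed gene between them. All 3 were weakly expressed and higher in Voyager. Their differences are larger than the scalings can shift, so the scalings are no check on the sign. Phvul.002G192000 (34841611 to 34843645) had 2.36 FPKM in Voyager and 0.08 FPKM in Albion. Its log2 difference of 1.64 was the largest of any member, and it was 3.77 with a pseudocount of 0.1 in place of 1. Phvul.002G191600 (34810183 to 34817275) had 2.79 FPKM in Voyager and 1.12 FPKM in Albion, a log2 difference of 0.84. Phvul.002G192600 (34877756 to 34879996) had 2.23 FPKM in Voyager and 0.68 FPKM in Albion, a log2 difference of 0.94. The pseudocount of 0.1 took both of these past 2-fold as well, at 1.24 and 1.58. The GPAT9 sum was 7.38 FPKM in Voyager and 1.88 FPKM in Albion, and at this level, without the reads behind each value, the precision of the ratio cannot be given.

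Other GPAT genes of the list, GPAT1, GPAT3, GPAT5, GPAT6 and GPAT8, were mixed. Several of these enzymes make precursors of the surface polymers cutin and suberin in A. thaliana. Their 6 genes had a median of 0.01, with 3 higher and 3 lower in Voyager. GPAT5 (Phvul.008G192000), which acts in suberin synthesis, had 12.91 FPKM in Voyager and 9.35 FPKM in Albion. GPAT8 (Phvul.010G099700), which acts in cutin synthesis, had 16.42 FPKM in Voyager and 16.48 FPKM in Albion.

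Other acyltransferases comprised 9 members with diverse substrates. A wax ester synthase-like gene of the WSD1 type, Phvul.008G157700 (chromosome 8, 40090506 to 40094613), had 1.18 FPKM in Voyager and 5.02 FPKM in Albion. Its log2 difference of -1.47 was the lowest of any member. The other 3 WSD1-like genes were higher in Voyager by 0.08 to 0.48, so the sum of the 4 was 52.9 FPKM in Voyager and 48.6 FPKM in Albion. The sterol acyltransferase gene ASAT1 (Phvul.011G013200) had 4.59 FPKM in Voyager and 2.19 FPKM in Albion, a log2 difference of 0.81, or 1.03 with a pseudocount of 0.1. The 3 genes of 2-oxoacid dehydrogenase acyltransferases, subunits of mitochondrial and plastid enzyme complexes that release acetyl-CoA or related products, summed to 119 FPKM in Voyager and 108 FPKM in Albion. The most abundant of them, Phvul.003G106700, had 45.58 FPKM in Voyager and 45.90 FPKM in Albion.

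Among the hydroxylases, the reductase and the amide hydrolases, the CER1 genes had the larger differences. CER1 takes part in the formation of wax alkanes. Phvul.010G040500 (chromosome 10, 5958325 to 5969543) had 1.08 FPKM in Voyager and 0.11 FPKM in Albion, and its neighbour Phvul.010G040600 (6001121 to 6011332) had 5.72 FPKM in Voyager and 3.27 FPKM in Albion. Their log2 differences were 0.91 and 0.65, and that of Phvul.010G040500 was 2.49, past 2-fold, with a pseudocount of 0.1. CER3 (Phvul.003G151600), the partner of CER1 in alkane formation, was far more abundant, with 86.05 FPKM in Voyager and 81.03 FPKM in Albion. Fatty acid amide hydrolases break down N-acylethanolamines, and the 3 genes summed to 32.6 FPKM in Voyager and 39.4 FPKM in Albion. The lowest of them in Voyager relative to Albion was Phvul.006G199100, with 13.46 FPKM in Voyager and 18.55 FPKM in Albion.

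Acyl-CoA synthetases activate free fatty acids, acyl-CoA-binding proteins carry the product, and thioesterases release it. The group of 12 had the lowest median of all groups, -0.10 (interval -0.20 to 0.10), with 9 of 12 lower in Voyager (10 of 12 with equal sums). Of the 6 long-chain acyl-CoA synthetases, 5 were lower in Voyager (6 of 6 with equal sums, where 66.6% of all listed genes were lower), with a median of -0.12 and a sum of 105 FPKM in Voyager and 112 FPKM in Albion. The lowest of them in Voyager relative to Albion was the LACS2 gene Phvul.003G036600, with 1.64 FPKM in Voyager and 2.38 FPKM in Albion. LACS2 acts in cutin synthesis in A. thaliana. ACBP6 (Phvul.002G127700, chromosome 2, 25708290 to 25710270), a cytosolic carrier of acyl-CoA, was the second most abundant member, with 320.25 FPKM in Voyager and 272.82 FPKM in Albion, a log2 difference of 0.23. The ACBP3 genes diverged, as Phvul.002G013000 had 7.64 FPKM in Voyager and 4.40 FPKM in Albion while Phvul.001G026200 had 12.06 FPKM in Voyager and 15.67 FPKM in Albion.

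Beta-oxidation enzymes had 14 members, 10 of them higher in Voyager (7 of 14 with equal sums or with median centring) and a median of 0.12. The thiolase KAT2 (Phvul.007G236600, chromosome 7, 47715918 to 47721240), which splits off acetyl-CoA in the last step, was the most abundant, with 151.50 FPKM in Voyager and 147.07 FPKM in Albion. Acyl-CoA oxidases catalyse the first step in peroxisomes. The ACX1 gene Phvul.009G116400 (chromosome 9, 17425551 to 17427028) had 3.51 FPKM in Voyager and 1.25 FPKM in Albion. Its log2 difference of 1.00 lay on the 2-fold line, and it was 0.85 with equal sums and 0.94 with median centring. The ACX2 gene Phvul.002G254200 (chromosome 2, 42056938 to 42062947) had 17.80 FPKM in Voyager and 27.45 FPKM in Albion, a log2 difference of -0.60. The 8 acyl-CoA oxidase genes together had 217 FPKM in Voyager and 198 FPKM in Albion.

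Some members are tandem copies. Within 50 kb of each other lay 7 neighbouring pairs with the same annotation, made of 13 genes for KCR1, CER1, GPAT9, ACX2, ACX1 and KCS19. The partners had differences of the same sign in all 7 pairs, also with equal sums. Of all listed genes, 61.9% were higher in Voyager as deposited and 66.6% were lower with equal sums. Many pairs of listed genes would therefore share a sign. The GPAT9 pairs have a gene in common, and reads of near-identical copies can be divided between them, so these values are not independent. Whether tandem copies share a sign more often than other genes was not tested. Both partners were higher in Voyager in 6 pairs (5 with equal sums, where the KCR1 pair turned to -0.01 and -0.02), and only the ACX2 pair was lower.

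Other genes of the pathway, which the annotation rule did not take, were listed by their annotation or symbol. They comprise acetyl-CoA carboxylase subunits, the malonyl transferase, enoyl-ACP reductase, acyl-ACP thioesterases, pyruvate dehydrogenase subunits, lipoic acid synthesis genes, membrane-bound acyltransferases, phosphatidic acid phosphatases, oil body proteins and regulators such as WRI1, LEC1 and FUS3. Of these 46 genes, 0 were at least 2-fold higher in Voyager and 1 was at least 2-fold lower. Their median difference was -0.00, against 0.07 for all listed genes, with 23 higher and 23 lower in Voyager. Oil body proteins, which coat the oil stores of seeds and were also counted among the seed annotations, were the most abundant of them. OLE1 (Phvul.007G138300), an oleosin, had 287.08 FPKM in Voyager and 381.70 FPKM in Albion, a log2 difference of -0.41. The 4 oleosin and 3 caleosin genes summed to 785 FPKM in Voyager and 1007 FPKM in Albion, with 5 of the 7 lower in Voyager. With equal sums 7 of 7 were lower, where 66.6% of all listed genes were lower. The oleosin genes Phvul.009G103600, with 262.49 FPKM in Voyager and 300.94 FPKM in Albion, and Phvul.008G144500, with 142.72 FPKM in Voyager and 175.64 FPKM in Albion, were also lower in Voyager.

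The gene past 2-fold was the caleosin-related Phvul.003G020700 (chromosome 3), with 22.55 FPKM in Voyager and 80.77 FPKM in Albion, a log2 difference of -1.80. Its neighbours, also caleosin-related, lay on either side of equality. Phvul.003G020500 had 9.01 FPKM in Voyager and 14.35 FPKM in Albion, and Phvul.003G020800 had 58.43 FPKM in Voyager and 51.10 FPKM in Albion, a log2 difference of 0.19 that was -0.00 with equal sums. The remaining oleosin gene, Phvul.003G177800, had 2.59 FPKM in Voyager and 2.47 FPKM in Albion. LEC1 (Phvul.006G057800) is a regulator of embryo development and of seed oil genes in A. thaliana. It had 0.38 FPKM in Voyager and 1.71 FPKM in Albion, a log2 difference of -0.97. The other regulators were close to equal. FUS3 (Phvul.001G086800) had 5.99 FPKM in Voyager and 5.93 FPKM in Albion. The WRI1 genes had 4.57 FPKM in Voyager and 4.86 FPKM in Albion (Phvul.011G187400), and 2.57 FPKM in Voyager and 2.6 FPKM in Albion (Phvul.003G069000). Over the whole seed list, 155 genes, the median was 0.11, with 92 genes higher and 63 lower in Voyager. Its 2 highest genes, both PAP85 cupins, were higher in Voyager. They had 7439.93 and 6670.99 FPKM in Voyager, and 5794.73 and 5283.89 FPKM in Albion. The annotation words of this list also took genes that need not mark seed. Whether the share of seed in the pod bears on these values was not tested.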

How the data were processed

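Per the labels and the study's methods, RNA of whole pods was sequenced in 3 libraries each of Voyager and Albion. After quality filtering, the authors mapped reads with TopHat 1.4.1 and Bowtie 0.12.7 to genome version 1.0 of P. vulgaris and estimated abundance with Cufflinks 1.3.0. The deposited table holds FPKM values made by the authors with Cuffdiff, 1 per gene and genotype, pooled over the libraries and rounded to 2 decimals. Its further columns hold the authors' fold changes, test statistics, p-values, q-values and calls, and none was used. With no replicate values, nothing was tested. The study states an average depth of its libraries, but the table gives no reads per gene or library, so no counting error could be computed.

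Differences were computed as log2((Voyager FPKM + 1)/(Albion FPKM + 1)) with Python 3.11, numpy 2.4.6 and pandas 2.3.3, and counted from 2-fold on this scale. Intervals of medians are 95% binomial, over genes (scipy 1.17.1), and genes are not replicates. Figures were drawn with matplotlib 3.10.9. The calculation was tested on simulated data. Alternatives were the pseudocount, filters on low values, 2 scalings (equal summed FPKM, and centring on the median difference of genes averaging 1 FPKM or more), the fold threshold, the membership words and overlapping genes (0 members overlap a listed gene).

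The members, the role groups and the lists were chosen with earlier results of these data known. Named are all carrier proteins, ketoacyl-ACP synthases and fatty acid desaturases, the 10 members of highest mean FPKM, the 10 per direction of largest difference, the highest and the most different member of each role, and, among other pathway genes, the 3 highest and the 3 most different. The KCS1, KCS10, KCS4, KCR1, LPAT2, GPAT5, GPAT8 and biotin carboxyl carrier protein genes, the second KCS19 gene, the caleosin gene Phvul.003G020800 and the oleosin gene Phvul.003G177800 stand outside this rule and were chosen after their values were seen. Promoter motifs and sequences of the members were not analysed here.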

Additional observations from a re-analysis of the deposited data

How the results depend on the processing

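No paired analysis was possible because the deposited table holds 1 pooled value per genotype, and for the same reason no library could be left out. The number of members at 2-fold was 3 higher and 2 lower in Voyager, from 5 role groups. A pseudocount of 0.1 gave 8 members higher and 3 lower. A mean of at least 5 FPKM left 1 higher and 1 lower, from 2 role groups. Of all listed genes at this level, 1.87% were higher and 1.25% lower. Equal summed FPKM gave 1 higher and 4 lower. For the pseudocount of 0.1 and equal sums, the shares of all listed genes were not computed. A threshold of 1.5-fold gave 10 higher and 5 lower, from 8 role groups, against 6.95% and 4.24% of all listed genes. The median of the members was 0.07 and became -0.12 with equal sums, and that of the other pathway genes was -0.00 and became -0.17. The number of role groups with a median above 0 was 8 of 11, and became 1 with equal sums and 5 with median centring. Median centring subtracts the same amount from every gene. Equal sums subtracts up to 0.19, and less from genes of low FPKM. Of 87 medians of single role groups under the alternatives, 6 moved outside their interval, 5 of them with equal sums (-0.26 for the acyl-CoA synthetase group, -0.17 for carotenoid desaturases, 0.02 for elongation, -0.11 for glycerolipid acyltransferases and -0.13 for ketoacyl-ACP synthases) and 1 with median centring (-0.05 for carotenoid desaturases). Leaving out overlapping genes, or NAT in any letter case, kept all 113 members, so the medians under these settings could not move. Under the alternatives the 57 named genes had 228 values. Of these, 201 stayed on the same side of the threshold, 24 newly passed it and 3 no longer did (mtACP3 and ACX1). Part of the 24 came from the 1.5-fold threshold, which leaves the values as they are. No gene past 2-fold could reverse, since equal sums moves a difference by -0.19 at most, median centring by less, and the other settings keep its sign. The table gives no reads per gene, so how far depth limits the genes of low FPKM cannot be stated.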

Other observations

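The members lay on 9 of the 11 chromosomes, apart from 1 gene on a scaffold. Chromosomes 2 and 7 held 17 members each, of 2457 and 2051 listed genes. Chromosomes 4 and 5, with 1199 and 1310 listed genes, held 0 members under this annotation rule, although other genes of the pathway were listed there, among them the biotin carboxyl carrier protein genes Phvul.004G035000 (30.34 FPKM in Voyager and 32.31 FPKM in Albion) and Phvul.004G034300 (11.85 FPKM in Voyager and 13.36 FPKM in Albion). As a share of listed genes, the members ranged from 0.494% on chromosome 9 to 0.829% on chromosome 7 among the chromosomes that held any.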
